A study of Mus musculus with 7 samples.

Results

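The chaperone genes described here are the 79 protein-coding genes of a mouse testis RNA-seq table whose symbols mark them as a heat shock protein (Hsp), a DnaJ protein (Dnaja, Dnajb or Dnajc) or a subunit of the cytosolic chaperonin (Cct), out of 19719 genes listed. They comprise 12 HSP70 and HSP110 chaperones, 1 exchange factor of HSP70 (*Hspbp1*), 3 HSP90 genes, and the mitochondrial chaperonin gene *Hspd1* with its cap *Hspe1*. There are also 8 CCT genes, 4 Dnaja, 13 Dnajb and 28 Dnajc genes. A further 6 genes have the symbol of a small heat shock protein (HSPB). These 6, *Hspb11* among them, were grouped by symbol alone, whether or not the product is a small heat shock protein. The symbol also takes *Hspg2*, which encodes the basement membrane proteoglycan perlecan, and *Hspbap1*, named for a protein that binds a small heat shock protein. The products of these 2 genes are no chaperones. 79 of 79 members had more than 1 CPM (read counts relative to a library size scaled by the authors) in at least 3 of 7 libraries, a filter that 19400 of all listed genes passed. *Cct6a*, listed as a processed transcript, is outside the rule. *Hspa1a* and *Hspa1b*, the classical heat-inducible HSP70 genes, were not analysed here.

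RNA of total testis was sequenced from C57BL/6 males at 8 weeks of age, 3 labelled WT and 4 labelled Rlim-KO. *Rlim* is an X-linked gene for a ubiquitin ligase. The series calls the control mice Rlim-Fl, and the study's text describes them as fl/Y littermates with a floxed *Rlim* allele, and the Rlim-KO males as cKO/Y Sox2-Cre, in which a Sox2-Cre transgene removed *Rlim*. Sox2-Cre acts in the epiblast, from which germ cells and the somatic cells of the testis both derive. The transgene is named for the Rlim-KO males and not for the fl/Y controls, so the effects of the transgene and of the deletion cannot be told apart. The labels give 2 batches with both genotypes in each. Batch 2 held WT replicates 1 and 2 and Rlim-KO replicates 1 and 2, and batch 1 held WT replicate 3 and Rlim-KO replicates 3 and 4.

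Sequencing depth ran from 2822168 to 8633399 counted reads per library. A gene without any read could thus be at up to 0.301 to 0.945 CPM (the value of 3 reads), by counting error alone. Mitochondrially encoded genes took 5.88% to 21.4% of the reads. *Rlim* itself was at 99.5, 70.7 and 61.5 CPM in WT and 32.6, 35.7, 21.7 and 20.7 CPM in Rlim-KO testes, a log2 difference of -1.38 (standard error 0.16) at an adjusted p of 0.0087 in limma, with every Rlim-KO library below every WT library. Its adjusted p was 0.154 without WT replicate 1, 0.634 without WT replicate 3 and 0.921 without the batch term, all in limma. Genes that mark the stages of spermatogenesis were detected in each library, and the summed level of 8 elongating spermatid genes was 8749 to 13758.9 CPM and that of 8 spermatocyte genes 765 to 1459 CPM. The ranges of the 2 genotypes overlapped for both.

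Molecular chaperones bind proteins that are not yet folded or have lost their fold. HSP70 proteins bind short stretches of an unfolded chain in a cycle of ATP hydrolysis. J proteins (the Dnaja, Dnajb and Dnajc families) bring them clients and start the hydrolysis, and exchange factors and the HSP110 proteins release the nucleotide. HSP90 acts late, on nearly folded kinases and receptors, the ring-shaped chaperonin CCT encloses actin and tubulin, and small heat shock proteins hold unfolded chains without ATP. Male germ cells are known for chaperone forms of their own, among them HSPA2, which spermatocytes need to complete meiosis, and for their sensitivity to heat, the testis being kept cooler than the body.

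The sum of the 79 members was 0.926% to 1.47% of the summed CPM of a library, and the 3 members with the most reads, *Hspa4l*, *Hsp90aa1* and *Hspa2*, took 28.7% of that sum. The HSP70 and HSP110 family had a sum of 3767 ± 417 CPM (SD, n = 3) in WT and 3727 ± 212 CPM (SD, n = 4) in Rlim-KO testes, and the HSP90 family 1973 ± 278 and 1926 ± 255 CPM. The CCT genes summed to 2037 ± 113 and 2049 ± 162 CPM. Among the J proteins the sums were 405 ± 33.9 and 397 ± 23.0 CPM for Dnaja, 1904 ± 78.0 and 1871 ± 207 CPM for Dnajb, and 1754 ± 75.8 and 1675 ± 149 CPM for Dnajc. The HSPB genes summed to 309 ± 38.0 and 299 ± 13.9 CPM, and the mitochondrial chaperonin with its cap to 39.3 ± 5.33 and 38.7 ± 3.72 CPM. In each family the sums of the genotypes overlapped and their means differed by less than the larger SD within a genotype. In RNA of whole testis, fewer cells of a type and less RNA per cell cannot be told apart.

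**Figure D1:**
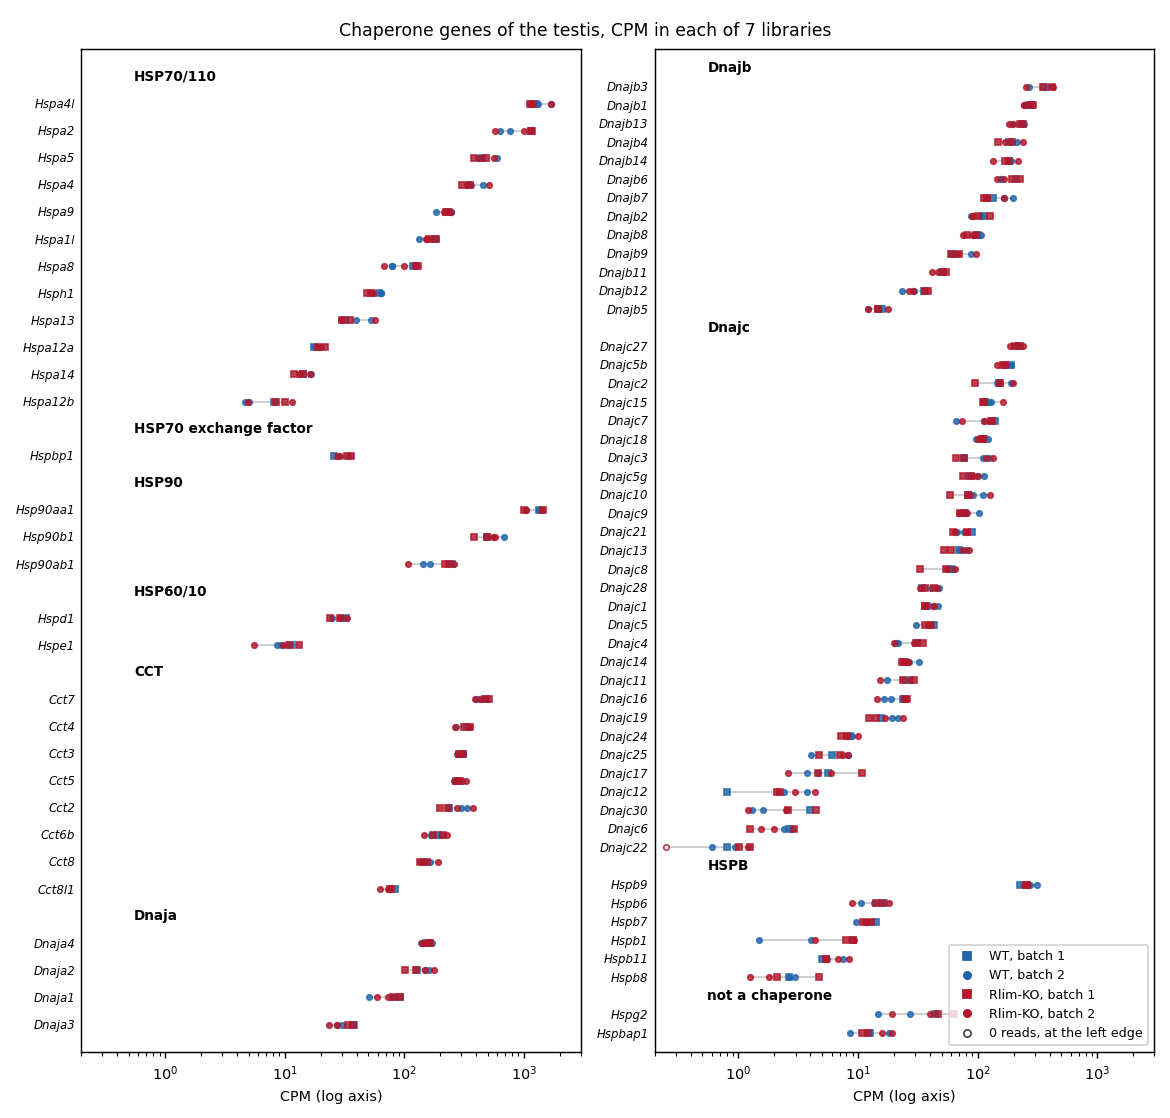
CPM (log axis) of the 79 chaperone genes in each of the 7 testis libraries, grouped by family and ordered by mean, in WT (blue) and Rlim-KO (red), with squares for batch 1 and circles for batch 2 and an open symbol at the left edge for 0 reads. Levels run from under 1 CPM for *Dnajc22* to over 1000 CPM for *Hspa4l* and *Hsp90aa1*. The blue and red symbols of a gene overlap in range, except those of *Hsph1*. Groups apart with Rlim-KO lower were found for 1.59% of all genes tested.

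As the plot of CPM by family shows, 34 members had a mean of at least 100 CPM and 12 a mean under 10 CPM. Levels of different genes were compared per kb of exon, with the exons of all annotated transcripts merged. On that scale the WT level was 371 ± 58.0 CPM per kb (SD, n = 3) for *Hspb9*, a small heat shock protein gene of the testis, 321 ± 101 for *Hspa2*, 319 ± 56.3 for *Dnajb3*, a J protein of spermatids, and 315 ± 44.8 for *Hsp90aa1*, the inducible HSP90 of the cytosol, which male germ cells need. These 4 did not differ from each other beyond their SD. After a gap came a group in which neighbours in the order again did not differ beyond their SD, from *Dnajc5b*, a germ cell relative of the cysteine string protein, at 145 ± 9.10 CPM per kb, through the ER (endoplasmic reticulum) HSP90 gene *Hsp90b1* at 136 ± 27.2 and *Hspa4l*, an HSP110 gene, at 120.3 ± 20.1, to *Hspa5* (BiP, the ER HSP70) at 115 ± 22.1 and *Cct2* at 114 ± 19.8. By the length of the principal transcript in place of merged exons, the 4 leading genes were again the highest 4, with *Hsp90aa1* ahead of the others. The lowest were *Dnajc22* at 0.420 ± 0.0879, *Dnajc6*, the clathrin uncoating factor auxilin, at 0.445 ± 0.0349, and *Dnajc12* at 0.517 ± 0.327 CPM per kb. *Dnajc22* had 0 reads in Rlim-KO replicate 1, which allows up to 0.931 CPM.

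Of the 11 members known from male germ cells, 9 were among the 20 highest members per kb of exon in WT testes, and 8 by the principal transcript. These 11 were listed with earlier results of these data known, so that the count is a description. They are *Hspa2*, *Hspa1l*, *Hspa4l*, *Hspb9*, *Dnajb3*, *Dnajb8*, *Dnajb13*, *Dnajc5b*, *Dnajc5g*, *Cct6b* and *Cct8l1*. Several could be set beside a relative that is used throughout the body. The level of *Hspa2* per kb of exon was 13.1 to 16.6 times that of *Hspa8*, the constitutive HSP70 of most cells, over the 7 libraries, and 7.65 to 9.70 times by the principal transcript. For this pair the genotypes stood at 14.9 ± 1.55 (SD, n = 3) in WT and 15.0 ± 1.22 (SD, n = 4) in Rlim-KO testes. *Hspa1l*, an HSP70 gene of spermatids, was at 2.15 to 4.10 times *Hspa8* by merged exons and 1.20 to 2.28 times by the principal transcript. Reads of these genes may be divided with near copies, since 35-base words that also occur in transcripts of other genes made up 43.5% of *Hspa8* and 71.6% of *Hspa1l* (shared with *Hspa1a*, *Hspa1b* and Gm10501), against 0% of *Hspa2*.

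Within the HSP110 family, *Hspa4l* was at 1.56 to 1.73 times *Hspa4* and at 12.5 to 19.4 times *Hsph1*, the heat-inducible HSP110, the latter at 8.14 to 12.6 times by the principal transcript. The ratio of *Hspa4l* to *Hspa4* was the narrowest of the 10 computed, at 1.71 ± 0.0183 (SD, n = 3) in WT and 1.61 ± 0.0759 (SD, n = 4) in Rlim-KO testes. *Dnajc5b* and *Dnajc5g* were at 20.9 to 30.6 and 8.43 to 15.8 times *Dnajc5*, the cysteine string protein of neurons and most other cells. *Dnajb3* was at 9.83 to 14.8 times *Dnajb6* by merged exons but at 2.60 to 3.92 times by the principal transcript, so the size of its excess over this relative depends on the length used. *Hsp90aa1* was at 3.04 to 9.91 times *Hsp90ab1*, the constitutive HSP90. *Cct8l1*, a gene related to the chaperonin subunit gene *Cct8*, was below it in each library, at 0.602 to 0.911 times its level.

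**Figure D2:**
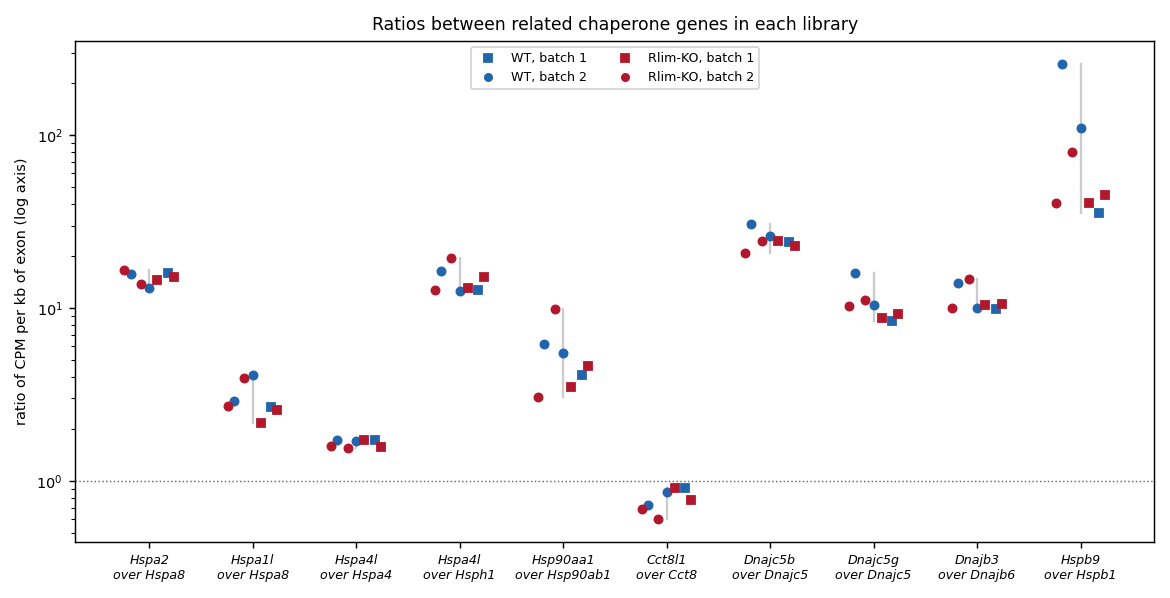
Ratio of CPM per kb of merged exon (log axis) between 10 pairs of related chaperone genes, 1 symbol per library, in WT (blue) and Rlim-KO (red), with squares for batch 1, circles for batch 2, a grey line for the range and a dotted line at equal levels. 9 ratios lie above 1 in each library, *Cct8l1* over *Cct8* lies below 1, and *Hspb9* over *Hspb1* spans 35.7 to 259.5.

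In the plot of ratios between relatives, the symbols of the 2 genotypes overlap for each pair. The widest spread was that of *Hspb9* over *Hspb1* (HSP27), whose denominator was at 1.49 to 9.31 CPM. The ratio of *Hsp90aa1* to *Hsp90ab1* was highest in Rlim-KO replicate 2, at 9.91, and lowest in Rlim-KO replicate 1, at 3.04, which are libraries of the same batch.

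Heat shock factors switch chaperone genes on by binding to inverted repeats of GAA, the heat shock element. The RefSeq promoter windows of GRCm38.p6, 250 bases before to 50 after a start site, were found for 65 of the 79 members (84 windows). They were searched on both strands for GAANNTTC or TTCNNGAA (2 units) and for a further unit in register (3 units, GAANNTTCNNGAA or TTCNNGAANNTTC), which contain the former. The 2-unit element was in windows of 16 members, and in 21.4% of member windows against 15.1% of all 32851 windows. The 3-unit element was in windows of 4 members, and in 7.14% of member windows against 0.603% of all. A site can lie in more than 1 window. By gene, the shares were 24.6% of members against 17.0% of all genes for 2 units. For 3 units they were 6.15% against 0.662%. The 3-unit form is the one that the fewest of all windows hold. For *Hspd1* and *Hspe1* the capitals below span overlapping matches to it. The sites of these 4 members are printed 5′ to 3′ on the strand of the gene, with the element in capitals. They lie at chr5:29735844-29735873 (plus strand) for *Dnajb6*, chr1:55088053-55088082 for *Hspd1* (minus strand) and *Hspe1* (plus strand), and chr5:149636279-149636308 (minus strand) for *Hsph1*.
Dnajb6: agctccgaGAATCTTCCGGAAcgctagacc
Hspd1: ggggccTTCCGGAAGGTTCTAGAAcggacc
Hspe1: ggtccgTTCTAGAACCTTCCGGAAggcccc
Hsph1: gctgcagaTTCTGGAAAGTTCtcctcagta
The sites of *Hspd1* and *Hspe1* are the same 30 bases read on opposite strands, since these genes for the mitochondrial chaperonin and its cap start back to back. The element of *Hsph1* begins at base 16 after a start site and at base 37 after another. That of *Dnajb6* begins 46 bases before a start site. The cAMP response element TGACGTCA, which CREM binds in spermatids, was found for *Dnajc27* alone among these members, in 1.19% of member windows against 1.79% of all. A match is a description of the window and not a measured binding site.

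The members with the 3-unit element did not stand at like levels. *Hsph1* was at 63.8, 64.2 and 61.3 CPM in WT and 54.9, 53.8, 52.6 and 48.9 CPM in Rlim-KO testes. *Dnajb6*, a J protein that holds back protein aggregates, was at 157, 155 and 208 CPM in WT and 145, 167, 195 and 226 CPM in Rlim-KO testes. *Hspd1* was at 29.5 ± 4.12 and 28.9 ± 3.91 CPM and *Hspe1* at 9.79 ± 1.43 and 9.84 ± 3.21 CPM in WT and Rlim-KO (mean ± SD, n = 3 and 4), where 50.2% and 28.5% of their 35-base words also occur in transcripts of other genes. The libraries of both genotypes lay in the same range for *Dnajb6*, *Hspd1* and *Hspe1*, and apart for *Hsph1*. Groups apart with Rlim-KO lower were found for 1.59% of all genes tested.

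The comparison of Rlim-KO with WT asks which chaperone genes differ in testes that lack *Rlim*. No member passed the test. At an adjusted p under 0.05 in limma, 0 of 79 members were lower and 0 higher, where 0.00515% of all 19400 genes tested were lower (*Rlim* alone) and 0.0% higher. With no adjustment, p under 0.05 was again reached by 0 members in the lower and 0 in the higher direction, against 1.37% and 1.22% of all genes. The quasi-likelihood test of edgeR and DESeq2, run on the reads recovered from the CPM, also called 0 members in either direction at both thresholds. The median log2 difference was -0.026 over the members and -0.0055 over all genes tested, with 49 members below 0 and 30 above (48 and 31 by edgeR, 45 and 34 by DESeq2). Of all genes tested, 9942 were below 0 and 9458 above in limma. Without *Hspg2* and *Hspbap1* the median of the members was -0.027. Within batch 1 the median of the members was -0.060, and within batch 2 it was 0.0072. The 95% interval of the difference lay within 1.5-fold in either direction for 64 members and within 2-fold for 73, so that changes of these members beyond those sizes lay outside the interval.

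**Figure D3:**
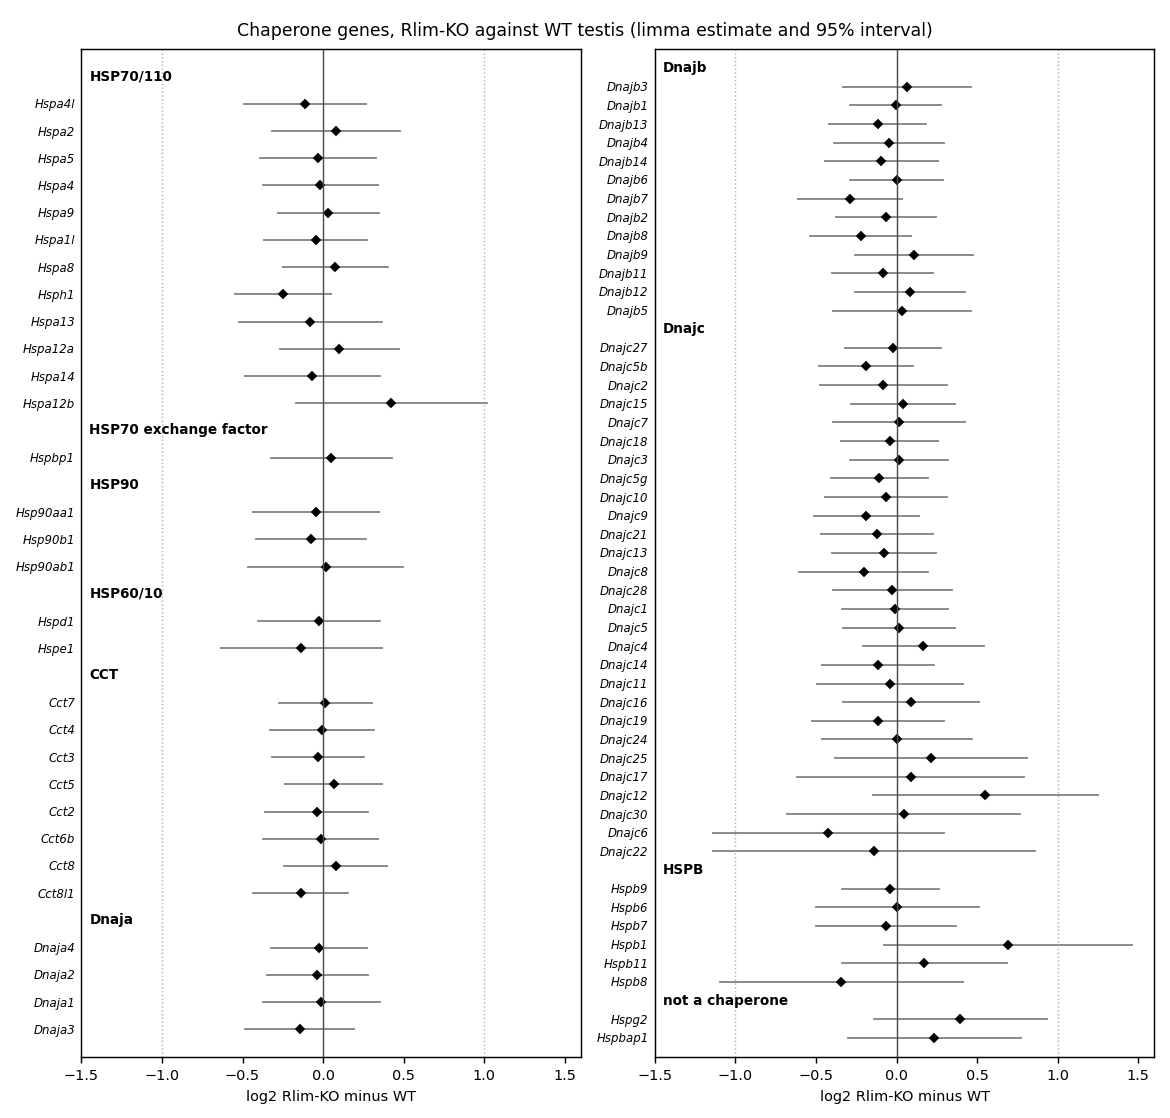
Log2 difference between Rlim-KO and WT testes of the 79 chaperone genes (diamonds) with the 95% interval from limma (lines), by family, with dotted lines at a 2-fold change either way. Each interval includes 0, and the intervals of *Hspb1*, *Dnajc12*, *Hspa12b*, *Dnajc6*, *Dnajc22* and *Hspb8*, at low counts, reach past a 2-fold change.

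*Hsph1* (ENSMUSG00000029657) was the only member whose groups did not overlap. Its level was 63.8, 64.2 and 61.3 CPM in the 3 WT libraries, and each of the 4 Rlim-KO libraries was lower, from 48.9 to 54.9 CPM. This is a log2 difference of -0.25 (standard error 0.14), with -0.27 within batch 1 and -0.23 within batch 2, and an unadjusted p of 0.0974 in limma. Groups that do not overlap, with Rlim-KO lower, were found for 1 of 79 members (1.27%) and 1.59% of all genes tested. The share of the members was near that of all genes. With Rlim-KO higher, groups that do not overlap were found for 0 members and 1.34% of all genes. The fold interval of *Hsph1* was 0.68- to 1.04-fold. The product, HSP105, is an exchange factor for HSP70 that is also induced by heat.

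The members with the smallest p besides *Hsph1* overlapped between the genotypes. *Hspb1*, the small heat shock protein HSP27, was at 1.49, 4.04 and 9.02 CPM in WT and 9.31, 4.39, 9.13 and 7.93 CPM in Rlim-KO testes. The low WT values are those of batch 2. Its log2 difference was 0.69 (standard error 0.36, unadjusted p = 0.0741 in limma), with -0.079 within batch 1 and 1.20 within batch 2, and 54.3% of its 35-base words occur in transcripts of other genes. *Dnajb7*, an intronless J protein gene within *Xpnpep3*, was at 197, 164 and 134 CPM in WT and 121, 166, 113 and 119 CPM in Rlim-KO testes. It had a log2 difference of -0.29 (standard error 0.15, unadjusted p = 0.0741 in limma), with -0.21 within batch 1 and -0.34 within batch 2. For *Dnajb7* the Rlim-KO libraries other than replicate 2 lay below the lowest WT library.

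The other 7 members of the 10 with the smallest p had unadjusted p-values from 0.113 to 0.237 in limma. *Dnajc12*, a co-chaperone of aromatic amino acid hydroxylases, was at 2.31 ± 1.46 CPM (SD, n = 3) in WT and 2.91 ± 1.03 CPM (SD, n = 4) in Rlim-KO testes, and *Dnajc6* at 2.63 ± 0.206 and 1.93 ± 0.721 CPM. *Hspa12b*, a distant HSP70 relative of endothelial cells, was at 5.97 ± 1.96 and 8.74 ± 2.80 CPM, and *Hspg2* at 28.7 ± 14.7 and 42.2 ± 18.2 CPM. At higher levels, *Dnajb8* was at 99.9 ± 7.91 and 86.4 ± 10.01 CPM, *Dnajc5b* at 182 ± 11.5 and 161 ± 11.7 CPM and *Dnajc9*, a histone chaperone as well as a J protein, at 86.6 ± 14.0 and 74.8 ± 5.68 CPM. Among them, *Dnajc12*, *Hspa12b* and *Hspg2* had estimates above 0 and *Dnajb8*, *Dnajc5b*, *Dnajc6* and *Dnajc9* below 0.

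The HSP70 and HSP110 genes that germ cells use were measured at high depth. *Hspa2* was at 763, 637 and 1150.0 CPM in WT and 1009, 574, 1163 and 1155 CPM in Rlim-KO testes. In each genotype the lowest library was of batch 2, and the range of WT lay within that of Rlim-KO. The log2 difference was 0.081 (standard error 0.19), with a fold interval of 0.80- to 1.39-fold. *Hspa4l*, whose protein serves sperm development as an HSP110, was at 1691, 1302 and 1262 CPM in WT and 1127, 1690.5, 1115 and 1195 CPM in Rlim-KO testes. Here WT replicate 1 and Rlim-KO replicate 2 stood above the other 5 libraries, and the log2 difference was -0.11 (standard error 0.18). *Hspa1l* was at 132, 186 and 181 CPM in WT and 154, 152, 162 and 185 CPM in Rlim-KO testes, with the 4 Rlim-KO libraries inside the range of WT and a log2 difference of -0.047 (standard error 0.15).

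*Hspb9* was at 272, 311 and 227 CPM in WT and 265, 246, 260.4 and 253 CPM in Rlim-KO testes, and the Rlim-KO libraries lay within the WT range. *Dnajb3* was at 382, 269 and 355 CPM in WT and 252, 427, 351 and 414 CPM in Rlim-KO testes, where the lowest and the highest library were both Rlim-KO of batch 2. *Dnajb13*, which encodes a protein of the radial spokes of sperm flagella, was at 194, 246 and 232 CPM in WT and 198, 184, 224 and 241 CPM in Rlim-KO testes. Their log2 differences were -0.040, 0.063 and -0.12, with standard errors of 0.14, 0.19 and 0.14, and the libraries of both genotypes overlapped for each. *Dnajb8*, a J protein of the testis that suppresses aggregation, was at 91.6, 107 and 101 CPM in WT and 91.5, 75.5, 80.9 and 97.7 CPM in Rlim-KO testes. It had a log2 difference of -0.22 (standard error 0.15), and 3 Rlim-KO libraries lay below the lowest WT library, 1 of them by a narrow margin, while 1 lay within the WT range.

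*Dnajc5b* was at 169, 188 and 189 CPM in WT and 144, 170.2, 162 and 168 CPM in Rlim-KO testes, with 3 of 4 Rlim-KO libraries below the lowest WT library. *Dnajc5g*, its neighbour in the cysteine string protein family, was at 114, 97.9 and 85.7 CPM in WT and 92.1, 101, 75.3 and 87.5 CPM in Rlim-KO testes. *Cct6b*, the testis form of a chaperonin subunit, was at 205, 168 and 189.9 CPM in WT and 145, 226, 174 and 212 CPM in Rlim-KO testes. For *Cct6b* the Rlim-KO libraries enclosed the WT range. *Cct8l1* was at 75.5, 75.9 and 83.3 CPM in WT and 63.3, 72.8, 77.8 and 76.4 CPM in Rlim-KO testes, and 2 of the 4 Rlim-KO libraries lay within its WT range. Over the 11 germ cell members the median log2 difference was -0.11, with 9 below 0 and 2 above. Over all genes tested the median was -0.0055, with 9942 below 0 and 9458 above. The median of the germ cell members was -0.067 within batch 1 and -0.12 within batch 2. By the tests on recovered reads 8 of the 11 were below 0. 0 of the 11 passed an unadjusted p of 0.05 in limma.

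**Figure D4:**
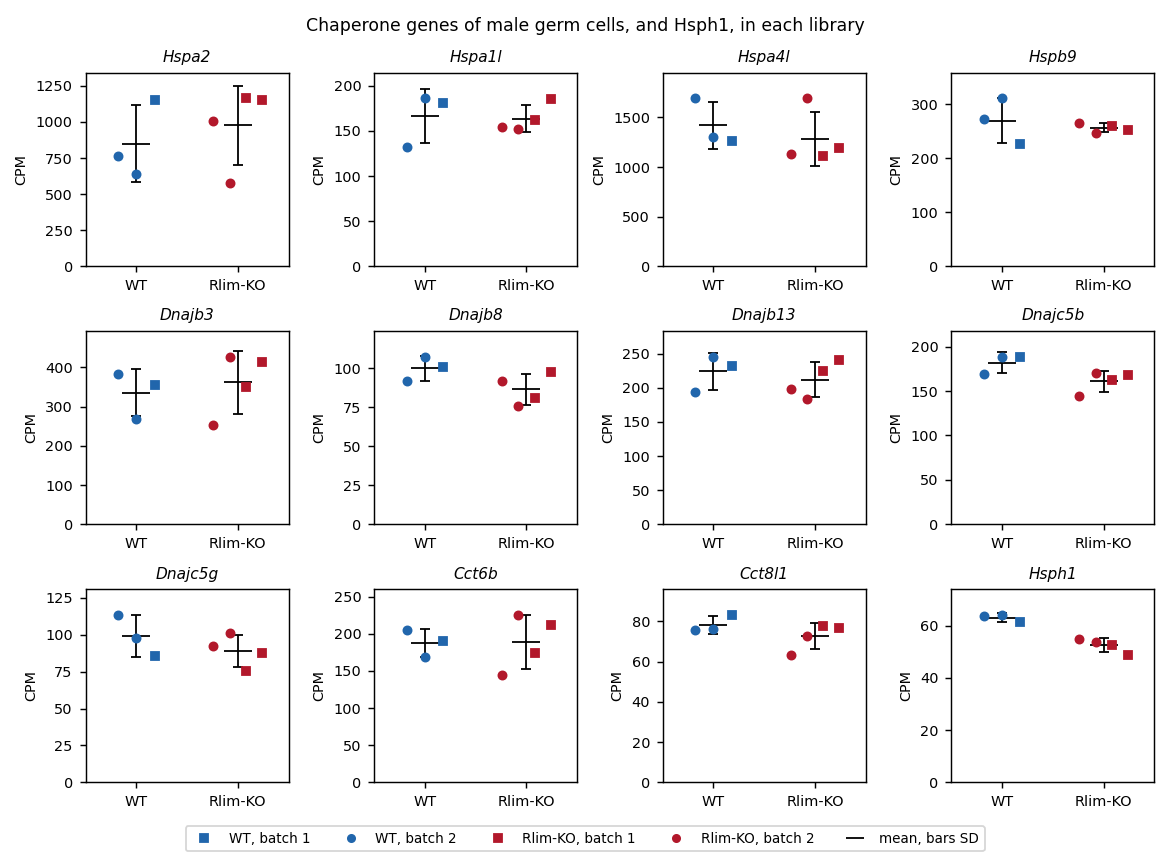
CPM of the 11 chaperone genes known from male germ cells, and of *Hsph1*, in each library of WT (blue) and Rlim-KO (red). Squares are libraries of batch 1 and circles those of batch 2, and the bars give the SD around the mean (n = 3 and 4). Axes start at 0. The symbols of WT and Rlim-KO overlap for the 11 germ cell genes. For *Hsph1* the 4 Rlim-KO libraries, at 48.9 to 54.9 CPM, lie below the 3 WT libraries, as for 1.59% of all genes tested.

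The plot of the germ cell members by library shows that the order of the libraries differed from gene to gene. *Hspa2* had its 3 highest values in batch 1, and *Hspa4l* had its 3 lowest values in Rlim-KO libraries. *Hspb9* stood at 269.6 ± 42.1 and 256 ± 8.35 CPM and *Cct8l1* at 78.2 ± 4.38 and 72.5 ± 6.54 CPM in WT and Rlim-KO (mean ± SD), so that the 4 Rlim-KO libraries of *Hspb9* were closer together than the 3 of WT.

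Chaperones that other tissues also use overlapped between the genotypes too. *Hsp90aa1* was at 1331, 1033 and 1345 CPM in WT and 1037, 1405, 998 and 1433 CPM in Rlim-KO testes, with a log2 difference of -0.043 (standard error 0.18), and 50.4% of its 35-base words occur in transcripts of other genes. *Hsp90ab1* was at 187 ± 57.5 CPM (SD, n = 3) in WT and 206 ± 67.2 CPM (SD, n = 4) in Rlim-KO testes. Its values ran from 108 CPM in Rlim-KO replicate 2 to 260.2 CPM in Rlim-KO replicate 1, so that 1 genotype held both ends. *Hspa8* was at 91.9 ± 22.2 and 105 ± 28.9 CPM and *Hspa9*, the mitochondrial HSP70 mortalin, at 223 ± 33.9 and 228 ± 13.2 CPM in WT and Rlim-KO. *Hspa4* stood at 388 ± 61.6 and 375 ± 91.7 CPM. For each of these the difference of the means was smaller than the larger SD.

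The 8 chaperonin genes had log2 differences from -0.14 (*Cct8l1*) to 0.077 (*Cct8*), with 5 below 0 and 3 above by limma, 4 and 4 by edgeR, and 3 and 5 by DESeq2. *Cct7* was at 436 ± 45.3 and 454 ± 53.1 CPM, *Cct4* at 318 ± 40.8 and 322 ± 40.6 CPM and *Cct3* at 298 ± 19.2 and 293 ± 11.9 CPM. *Cct3* had the smallest spread of any member, with a coefficient of variation of 4.79% over the 7 libraries. The median over members was 16.3%, beside 26.3% over all genes tested, many of which are at lower levels. *Tcp1*, a further subunit of the ring by another name, was counted with the partners of the chaperonin.

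Of the 11 chaperones and J proteins of the ER, 7 were below 0 and 4 above, with a median log2 difference of -0.032 (0.026 within batch 2). *Hspa5* was at 485 ± 93.3 and 465 ± 77.2 CPM, and *Hsp90b1* at 549.8 ± 109.8 and 503 ± 85.6 CPM. *Dnajb9* and *Dnajb11*, which deliver clients to BiP, were at 70.1 ± 15.0 and 73.2 ± 15.997 CPM and at 50.2 ± 0.944 and 48.3 ± 5.42 CPM. The 9 mitochondrial members gave 6 below 0 and 3 above, with a median of -0.026. Among 10 members listed for the heat response, 7 were below 0 and 3 above, with a median of -0.014 (0.044 within batch 2). This list also holds *Hspa8* and *Hsp90ab1*, named above as constitutive. It includes *Dnajb1* (HSP40), at 261 ± 9.83 and 265 ± 24.7 CPM, and *Dnaja1*, at 73.9 ± 20.8 and 75.9 ± 13.5 CPM. 0 members of these 3 lists passed an unadjusted p of 0.05 in limma.

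Other J proteins overlapped between the genotypes as well. *Dnaja4*, at 153 ± 15.7 and 152 ± 11.7 CPM, and *Dnaja2*, at 147 ± 16.9 and 138 ± 33.3 CPM, are J proteins of the cytosol, and 43.1% of the 35-base words of *Dnaja4* are shared with *Wdr61*, which overlaps it on the other strand. *Dnajc27*, which encodes a Rab-like GTPase with a J domain, was at 215 ± 6.25 and 214 ± 22.8 CPM, and *Dnajc2*, a J protein bound to ribosomes, at 161 ± 24.0 and 149.7 ± 42.0 CPM. The members with the largest spread were *Dnajc22*, *Dnajc30*, *Hspb1*, *Dnajc17* and *Hspg2*, with coefficients of variation of 51.7%, 50.8%, 48.4%, 48.1% and 46.7% over the 7 libraries. *Hspb6* and *Hspb7*, small heat shock proteins known from muscle, were at 13.5 ± 2.92 and 14.3 ± 3.94 CPM and 12.2 ± 2.28 and 11.8 ± 0.793 CPM, and *Hspbap1* at 12.99 ± 4.80 and 14.5 ± 3.82 CPM. 26 of the 79 members overlap another listed gene, so that reads of antisense partners could be counted with them where counting ignored strand.

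Partners of the chaperones were represented by 74 listed genes. At an unadjusted p under 0.05 in limma, 1 was lower in Rlim-KO and 0 were higher, against 1.37% and 1.22% of all genes, so that the share of the partners was near that of all genes, and 0 passed an adjusted p of 0.05. 39 of them were below 0 and 35 above, with a median of -0.0030. The gene that was lower is *Bag2*, which encodes an exchange factor that holds back the ubiquitin ligase of HSP70 clients, at 8.02 ± 1.22 CPM (SD, n = 3) in WT and 5.36 ± 0.725 CPM (SD, n = 4) in Rlim-KO testes (log2 difference -0.55). *Rpap3*, of an HSP90 complex that assembles RNA polymerases, was at 17.5 ± 2.81 and 12.4 ± 3.83 CPM, and *Ero1lb*, an oxidase of the ER, at 88.8 ± 1.26 and 116 ± 43.4 CPM, with unadjusted p-values of 0.0611 and 0.0506 in limma. At an unadjusted p under 0.05, edgeR and DESeq2 each put 1 partner of the ER higher in Rlim-KO, and DESeq2 put 0 partners of HSP70 lower. Of 7 genes for heat shock factors and their binding proteins 1 was below 0 and 6 above (2 and 5 with libraries rescaled to equal sums), with *Hsf1*, the main factor of the heat shock response, at 13.6 ± 3.22 and 16.5 ± 3.76 CPM and *Hsfy2*, a testis relative, at 133 ± 21.4 and 111 ± 24.3 CPM. The scaffold *Bag6* of the HSP70 system was at 442 ± 108 and 550.1 ± 136 CPM, and the prefoldin subunits *Pfdn1* and *Pfdn2*, which hand chains to the chaperonin, at 52.5 ± 3.91 and 46.7 ± 4.46 CPM and 5.80 ± 4.32 and 6.996 ± 3.61 CPM. In the ER the lectin chaperone *Calr* was at 298 ± 126 and 347 ± 75.1 CPM, and the mitochondrial proteases *Clpp* and *Lonp1* were at 5.31 ± 0.972 and 4.04 ± 0.401 CPM and 18.8 ± 3.99 and 22.5 ± 5.06 CPM. The medians were -0.0089 for 14 partners of HSP70 (0.0011 by edgeR), 0.0087 for 25 of HSP90, -0.043 for 12 of the chaperonin, -0.0030 for 12 of the ER (0.0046 by edgeR) and -0.083 for 4 mitochondrial proteases, beside -0.0055 over all genes tested.

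Members were called between the 2 batches of the labels. With the genotype in the same fit, 3 of 79 members were lower in batch 2 and 1 higher at an adjusted p under 0.05 in limma, where 3.6% of all genes tested were lower and 3.46% higher. Before adjustment, p was under 0.05 for 13 members that were lower and 8 that were higher (16.5% and 10.1%), against 12.9% and 11.9% of all genes. The shares of the members were thus near those of all genes. The median was -0.063 over the members and 0.0084 without Rlim-KO replicate 1. With libraries rescaled to equal sums, the median of all genes moved from -0.018 to -0.24 and that of the members to -0.31, and 14 members were lower and 0 higher, against 10.8% and 1.11% of all genes.

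*Hspa2* was at 763, 637, 1009 and 574 CPM in batch 2 (WT replicates 1 and 2, Rlim-KO replicates 1 and 2) and 1150.0, 1163 and 1155 CPM in batch 1. The 3 libraries of batch 1 lay within 1150.0 to 1163 CPM, and each library of batch 2 was lower. Its log2 difference of batch 2 from batch 1 was -0.65 (standard error 0.19, adjusted p = 0.0466 in limma). *Hspa8* was at 79.2, 78.96, 98.6 and 67.6 CPM in batch 2 and 117, 131 and 125 CPM in batch 1, without overlap, for a log2 difference of -0.61 (standard error 0.15, adjusted p = 0.0294 in limma). *Hspg2*, which is no chaperone, was at 14.7, 27.3, 40.0 and 19.3 CPM in batch 2 and 44.0, 63.3 and 46.2 CPM in batch 1. It had the largest difference of the 4, at -1.01 (standard error 0.25, adjusted p = 0.0287 in limma).

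*Dnajc3*, an ER J protein that restrains the kinase PERK, was the member higher in batch 2, at 124, 111, 116 and 134 CPM in batch 2 and 76.4, 65.5 and 77.3 CPM in batch 1. Every library of batch 2 was above those of batch 1, with a log2 difference of 0.73 (standard error 0.14, adjusted p = 0.0106 in limma). *Cct2* and *Dnajb6* came next by p and missed the threshold. *Cct2* was at 336, 300.1, 274 and 377 CPM in batch 2 and 236, 201 and 234 CPM in batch 1 (adjusted p = 0.0535 in limma), and *Dnajb6* at 157, 155, 145 and 167 CPM in batch 2 and 208, 195 and 226 CPM in batch 1 (adjusted p = 0.0705 in limma). Rescaled to equal sums, the log2 differences kept their sign, at -0.90 for *Hspa2*, -0.86 for *Hspa8*, -1.26 for *Hspg2* and 0.49 for *Dnajc3*. The counts of calls depended on single libraries, for the members and for all genes. Without Rlim-KO replicate 1 there were 10 members lower and 7 higher, against 8.14% and 7.48% of all genes. Without WT replicate 3 there were 0 members in either direction, against 0.191% lower and 0.186% higher of all genes, and without Rlim-KO replicate 3 again 0, against 0.521% and 0.376%. Leaving out WT replicate 1 gave 0 members lower and 1 higher, against 1.32% and 0.954% of all genes, and leaving out Rlim-KO replicate 2 the same counts, against 1.98% and 1.44%. With Rlim-KO replicate 4 left out there was 1 member in each direction, against 1.2% and 1.28% of all genes.

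The list of 10 members for the heat response also holds *Hspa8* and *Hsp90ab1*, described above as constitutive. Of these 10, 5 were lower in batch 2 and 0 higher by an unadjusted p under 0.05 in limma. The shares of all genes were 12.9% and 11.9%. The median of the 10 was -0.30. The 5 were *Hspa8*, *Dnaja1*, *Hspb1*, *Hsp90ab1* and *Hspe1*. Words of 35 bases shared with other genes made up 43.5%, 22.0%, 54.3%, 9.26% and 28.5% of them, in that order. DESeq2 called 3 of the 10 at an unadjusted p under 0.05, where its share over all genes is not given. Of the 11 ER members 8 were above 0, with a median of 0.21, which was -0.016 when the libraries were rescaled to equal sums. Of the 11 germ cell members 8 were below 0, with a median of -0.078. Between the batches, 10002 of all genes tested were below 0 and 9398 above. Summed levels of elongating spermatid, round spermatid and spermatocyte markers lay apart between the batches, and those of spermatogonia overlapped. The 8 elongating spermatid genes summed to 8749 to 9851 CPM in batch 2 and 11975.7 to 13758.9 CPM in batch 1. Their median log2 difference was -0.58, with 6 below 0 and 2 above. The 8 spermatocyte genes summed to 1196 to 1459 CPM and 765 to 990.3 CPM, with a median of 0.25, 3 below 0 and 5 above. The 8 round spermatid genes summed to 853 to 1002 CPM and 1055 to 1086 CPM, with a median of -0.31, 7 below 0 and 1 above. The 8 spermatogonial genes summed to 92.1 to 133 CPM and 102 to 111 CPM, with a median of -0.018, 4 below 0 and 4 above. Reads of mitochondrially encoded genes made up 12.7% to 21.4% of batch 2 and 5.88% to 9.31% of batch 1. Their part in the differences of the members was not tested.

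**Figure D5:**
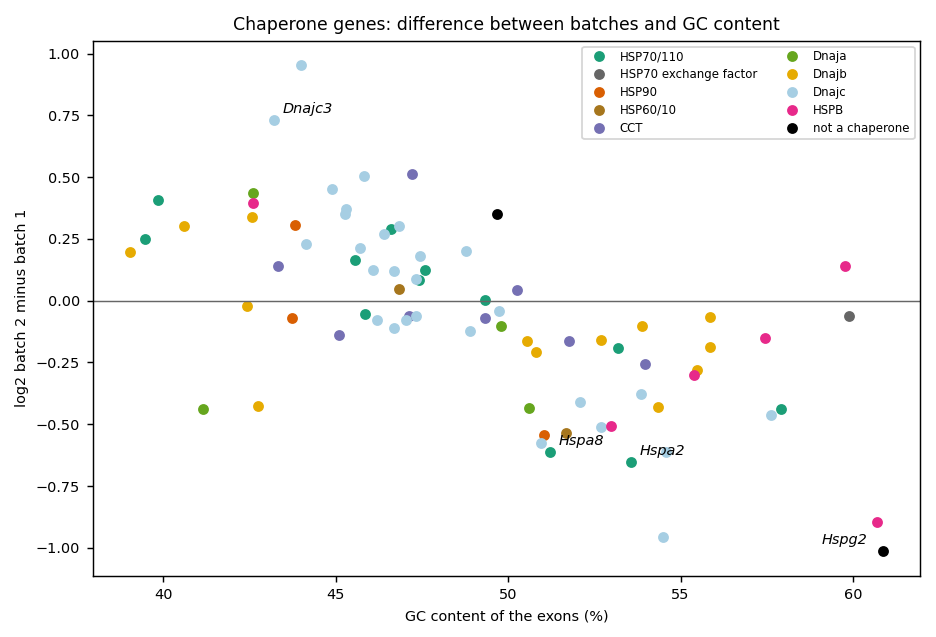
Log2 difference of batch 2 from batch 1 against GC content (%) for the 79 chaperone genes, 1 symbol per gene, coloured by family. GC content is that of the principal transcript, which the axis names as exons. Points fall from the upper left to the lower right (Spearman's rho -0.69 over 79 genes). Among the 4 genes called between the batches, *Dnajc3* is at a log2 difference of 0.73 and *Hspg2* at -1.01.

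The plot of the batch difference against GC content sets each member beside a property of its sequence. GC content was taken from the longest principal transcript of a gene, or from its longest transcript, and not from the merged exons. It ran from 39.0% to 60.9% over the members. Its Spearman correlation with the batch difference was -0.69 over the 79 genes, beside -0.56 over 19363 genes with a known GC content. The genes share the same 7 libraries, so no p is given. The median difference was 0.20 for the members with the lower GC content and -0.23 for those with the higher. For the difference of a library from the mean of all 7, the correlation over the members was -0.69 in WT replicate 1, -0.11 in WT replicate 2, 0.27 in Rlim-KO replicate 1 and -0.74 in Rlim-KO replicate 2, the 4 libraries of batch 2. In batch 1 it was 0.51 in WT replicate 3, 0.70 in Rlim-KO replicate 3 and 0.49 in Rlim-KO replicate 4. For the difference between the genotypes it was 0.21. *Hspg2* had the highest GC content of the members and *Dnajc3* one of 43.2%, below the median of 47.6%. The part of GC content in the batch difference was not tested.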

How the data were processed

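The authors deposited a table of CPM per gene for 7 testis libraries, which are counts divided by a library size scaled with edgeR, so that the deposited values are treated as normalized signal. Per the submitters' processing notes, reads were aligned to GRCm38 with HISAT2 2.1.0 and counted with featureCounts. The methods of the study name TopHat and HTSeq for its 35-base paired reads, and the strand setting of the counting is not given in the sources used here. CPM values were whole multiples of 1 read within 0.001 read for 100% of values in each library, so reads could be recovered. Their TMM factors matched the authors' scaling.

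The 19400 genes above 1 CPM in 3 or more libraries were fitted with limma 3.58.1 in R 4.3.3 (trend) on log2(CPM + 0.5), with genotype and the batch of the labels as terms, two-sided, and Benjamini-Hochberg adjusted over all genes tested. Fold changes are on the log2(CPM + 0.5) scale, which understates the change of low genes. The libraries are biological replicates by the study's methods. On the recovered reads, edgeR 4.0.16 (quasi-likelihood) and DESeq2 1.42.0 each called 1 gene between the genotypes, *Rlim*. Other alternatives changed the pseudocount (0.1 or 1), the filter (none, or mean CPM above 5), the scaling, the batch term, the variance trend, and the libraries used. The fit was also run on simulated libraries, with an outcome that is not reported here. The simulated libraries held no batch difference, so they cannot test the batch term.

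The members and gene lists were chosen with earlier results of these data known. Named are *Rlim*, the 11 germ cell members, the 3 members with the highest mean CPM per family with *Hspd1* and *Hspe1*, the 10 with the smallest p for genotype, 6 for batch, the 5 most variable, and 2 partners per list, of which 1 is not reported here. Other members named (*Hspa4*, *Hspa9*, *Dnajb9*, *Dnajb11*, *Dnajc5*, *Hspb8*, *Cct8*) serve as relatives, family ends or examples and were chosen with their values known. Exon lengths came from GENCODE M21, where 91.8% of listed genes have the same start and end. Promoters came from RefSeq (GRCm38.p6), and 65 of 79 members matched.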

Additional observations from a re-analysis of the deposited data

Results flagged for a closer look

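The highest Rlim-KO library stood far from the other 3 for 2 of the 68 values examined by Dixon's test at the 95% level, which chance gives in about 1 of 20 groups. Both were Rlim-KO replicate 2. *Hspa4l*, the HSP110 gene of germ cells, was at 1690.5 CPM there and at 1115 to 1195 CPM in the other Rlim-KO libraries, while WT replicate 1, of the same batch, was at 1691 CPM. *Dnajb7* was at 166 CPM there, within the WT range of 134 to 197 CPM, and at 113 to 121 CPM in the other Rlim-KO libraries.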

How the results depend on the processing

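The count of 0 of 79 members at an adjusted p under 0.05 between the genotypes was the same under the 20 alternatives tried, in which the smallest adjusted p of a named member or partner was 0.785. At an unadjusted p under 0.05, 1 member was lower in batch 1 alone (*Dnajc8*, chosen after its values were seen) and 1 higher in batch 2 alone (*Hspb1*), and leaving out a library gave 0 to 1 lower (1 without Rlim-KO replicate 1 or 2) and 0 to 3 higher (1 without WT replicate 2 or 3, and 3 without Rlim-KO replicate 2, where the log2 difference was 0.81 for *Hspb1*, 0.64 for *Hspg2* and 0.66 for *Hspa12b*). The shares of all genes at that threshold are not given for these settings, so the counts are not a result about the members. At an adjusted p under 0.05, 2 members were higher in batch 2 with mean CPM above 5 and by DESeq2. Of 12254 genes with an adjusted p by DESeq2, 831 were higher and 707 lower. Without a variance trend, 0 members were lower and 0 higher in batch 2. With mean CPM above 5 and without a variance trend the shares of all genes are not given. The counts under these settings are thus not a result about the members. After rescaling to equal sums 14 were lower and 0 higher, against 10.8% and 1.11% of all genes. Leaving out each library gave 0 to 10 lower and 0 to 7 higher. The highest counts were both without Rlim-KO replicate 1, against 8.14% and 7.48% of all genes. The median of the members between the batches was -0.31 after rescaling to equal sums and -0.083 to 0.0084 with a library left out. Over these settings the adjusted p ran from 0.000445 to 0.102 for *Dnajc3*, from 0.0016 to 0.191 for *Hspg2*, from 0.0043 to 0.161 for *Hspa8* and from 0.0028 to 0.258 for *Hspa2*. *Rlim* was past the threshold in the fit reported and not in others, with a log2 difference of -1.47 without the batch term, -1.38 without a variance trend, -1.35 with the replicate block, -1.29 in batch 2 alone and -1.52 to -1.28 with a library left out (not past it without WT replicate 1 or 3). The cause of these changes was not tested, beyond the smaller number of libraries in some. Whether the replicate numbers of the labels pair the samples could not be decided, since the correlations below still hold the batch difference. The correlation of the deviations of same-numbered libraries from their genotype means was 0.101, 0.066 and 0.392. WT replicate 1 correlated best with Rlim-KO replicate 2 (0.474), and WT replicates 2 and 3 with the Rlim-KO library of the same number. For the latter the next best values were 0.049 and 0.359. With the number as a block, 0 members were called and the median of the members was -0.048.

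For 56 named genes, 1000 of 1114 estimates of the genotype difference kept their sign, 114 had the opposite sign and 21 genes kept it in each setting tried. The genes with sign changes had no call to lose. In batch 1 alone estimates of the opposite sign were 0.18 for *Hspb9*, 0.00043 for *Dnajb13*, 0.015 for *Cct6b*, -0.15 for *Hsp90ab1*, -0.14 for *Hspb6*, 0.10 for *Dnaja4*, 0.10 for *Dnajb1*, 0.074 for *Hspe1*, -0.079 for *Hspb1*, -0.10 for *Dnajc3*, 0.012 for *Dnajb6*, 0.33 for *Dnajc22*, -0.20 for *Dnajc30*, -0.12 for *Hspbap1*, -0.045 for *Ero1lb* and -0.071 for *Calr*. By edgeR estimates of the opposite sign were 0.0068 for *Cct6b*, 0.0052 for *Dnajb6*, 0.11 for *Dnajc22* and -0.028 for *Dnajc30*. By DESeq2 estimates of the opposite sign were 0.012 for *Cct6b*, 0.0028 for *Cct4*, 0.011 for *Dnajb6* and 0.070 for *Dnajc22*. In batch 2 alone estimates of the opposite sign were 0.042 for *Hsp90aa1*, 0.047 for *Hspb7*, 0.069 for *Dnaja2*, 0.048 for *Dnaja1*, 0.072 for *Dnajc2*, 0.16 for *Hspd1*, 0.017 for *Cct2* and -0.067 for *Dnajc17*. Rescaled to equal sums estimates of the opposite sign were -0.0031 for *Hspb6*. Rescaled to the upper quartile estimates of the opposite sign were -0.0031 for *Hspb6*. With the replicate block estimates of the opposite sign were -0.0073 for *Cct7* and -0.012 for *Dnajc3*. Without the batch term estimates of the opposite sign were 0.016 for *Cct4*, 0.063 for *Dnaja1*, 0.021 for *Dnajb1*, -0.11 for *Dnajc3* and 0.070 for *Dnajb6*. With each library left out in turn, the lowest and highest estimates were -0.13 to 0.27 for *Hspa2*, -0.17 to 0.072 for *Hspa1l*, -0.26 to 0.030 for *Hspa4l*, -0.19 to 0.045 for *Hspb9*, -0.12 to 0.26 for *Dnajb3*, -0.17 to 0.15 for *Cct6b*, -0.16 to 0.091 for *Hspa5* and -0.17 to 0.058 for *Hsp90aa1*. They ran from -0.22 to 0.030 for *Hsp90b1*, -0.33 to 0.30 for *Hsp90ab1*, -0.27 to 0.23 for *Hspb6*, -0.19 to 0.047 for *Hspb7*, -0.024 to 0.053 for *Cct7*, -0.11 to 0.092 for *Cct4*, -0.075 to 0.0028 for *Cct3* and -0.11 to 0.067 for *Dnaja4*. The ranges were -0.12 to 0.069 for *Dnaja2*, -0.18 to 0.13 for *Dnaja1*, -0.074 to 0.033 for *Dnajb1*, -0.11 to 0.062 for *Dnajc27*, -0.22 to 0.072 for *Dnajc2*, -0.15 to 0.16 for *Hspd1*, -0.28 to 0.084 for *Hspe1* and -0.057 to 0.092 for *Dnajc3*. The rest ranged over -0.052 to 0.22 for *Hspa8*, -0.17 to 0.061 for *Cct2*, -0.049 to 0.052 for *Dnajb6*, -0.50 to 0.38 for *Dnajc22*, -0.20 to 0.21 for *Dnajc30*, -0.14 to 0.39 for *Dnajc17*, -0.086 to 0.47 for *Hspbap1* and -0.10 to 0.41 for *Calr*.

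Depth limits the members at low levels. In the shallowest library 3 reads are 0.945 CPM, and 12 members had a mean under 10 CPM. 13 members share over 20% of their 35-base words with other genes, and without them the median between the genotypes was -0.029. Between the batches, 7 of the remaining 66 members were lower in batch 2 and 8 higher at an unadjusted p under 0.05 in limma. All 79 members gave 13 lower and 8 higher. The median between the batches was -0.032 over the 66 and -0.063 over the 79.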

Other observations

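*Cct6a*, which has the symbol of a chaperonin subunit but is listed as a processed transcript and so is outside the 79 genes, was at 184 ± 23.0 CPM (SD, n = 3) in WT and 159.6 ± 30.1 CPM (SD, n = 4) in Rlim-KO testes, with a log2 difference of -0.15 in limma. Its germ cell relative *Cct6b*, a member, was at 188 ± 18.3 and 189 ± 36.6 CPM. In Rlim-KO replicate 1 a gene listed as CT010467.1 took 19.3% of the reads, where *mt-Rnr2* took the most in the other libraries.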
